A study of Homo sapiens with 8 samples.

Results

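The matrix metalloproteases (MMP), the ADAM and ADAMTS proteases and the tissue inhibitors of metalloproteases (TIMP) were followed across breast cancer cells as 1 group of 69 genes. Members were taken by name, as genes whose symbol in the platform annotation is MMP, ADAM, ADAMTS or TIMP followed by a number. The Illumina table held 68 of them with 111 probes, among 18852 genes in all. The Affymetrix table held 66 with 148 probe sets, among 19775 genes. 65 members were on both tables, and 28 were above the intensity filter on both.

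Total RNA of cultured cells was measured on 8 expression arrays, 2 for each of 4 groups. LM2-miR126 cells, in which the microRNA miR-126 was over-expressed, were set against LM2 control cells on Affymetrix arrays. On Illumina bead arrays, LM2 cells, labelled highly metastatic, were set against MDA-MB-231 cells, labelled poorly metastatic. MDA-MB-231 is a triple-negative breast cancer line, and LM2 is a lung-metastatic derivative of it, so all 4 groups share 1 parental line. The labels do not say how miR-126 was over-expressed, what the control cells carried, which arm of the microRNA was meant, or whether LM2 is a clone. Nothing in them tells whether the paired arrays A and B are separate cultures, and the p-values then reflect only the spread between arrays, which may be technical.

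MMPs are zinc-dependent proteases that cut collagens and other matrix proteins, and most are secreted as inactive precursors. ADAM proteases sit in the membrane, and many of them release the outer parts of receptors, adhesion proteins and growth factors. ADAMTS proteases are secreted, and several of them cut matrix proteoglycans such as aggrecan and versican. TIMPs are small secreted proteins that bind the active site of these enzymes, and the balance of proteases and TIMPs is widely studied in tumour invasion.

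The mature sequences of miR-126 are shown because this microRNA was over-expressed in 1 of the 4 groups. Both arms come from 1 hairpin on chromosome 9, within the gene EGFL7, and the capitals mark the seed, bases 2 to 8, which pairs with target messages. The 2 seeds differ. The sequences are from RefSeq (GRCh38.p14), at chr9:136670653-136670674 for the 3p arm and chr9:136670616-136670636 for the 5p arm, both on the plus strand.
hsa-miR-126-3p: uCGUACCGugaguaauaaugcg
hsa-miR-126-5p: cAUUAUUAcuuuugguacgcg

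Values are deposited intensities, which on the Illumina arrays have a median of 94.39 over all probes and on the Affymetrix arrays are multiples of the array's own median. A gene was tested where the mean of its brightest probe lay above the median of all probes, which left 41 members on the Illumina and 37 on the Affymetrix arrays. The other 27 and 29 members were too dim to test. Changes are on the log2 scale, from limma, with p-values adjusted over all 12490 and 12923 genes tested and a threshold of 0.05. All 6 markers of basal or mesenchymal breast lines were above the filter in both tables. Among markers of other cells the picture was mixed. Of the luminal markers, ERBB2, GATA3, KRT19 and EPCAM were above the filter in both tables and PGR, the progesterone receptor, was below it. Of the endothelial markers, PECAM1 and TEK were above it and CDH5 and KDR below it in both. Of the blood cell markers, CD14 was above it and PTPRC, MPO and ELANE below it in both, while CD68 and LYZ were above it on the Illumina arrays. On the Affymetrix arrays alone, the luminal ESR1, the endothelial VWF and the blood cell marker CD3E were above it. The luminal CDH1 was above it on the Illumina arrays alone. Of the fibroblast markers, COL1A1, COL1A2 and DCN were above it in both, PDGFRA, PDGFRB and LUM on the Illumina arrays alone, and COL3A1 in neither. The LM2-miR126 arrays stood apart from each other. Over the members tested their mean absolute difference was 0.392 log2, against 0.0929 between the LM2 control arrays, and it was 0.197 between the LM2 and 0.171 between the MDA-MB-231 arrays. The same measure over all genes tested was 0.284 for LM2-miR126, 0.0871 for LM2 control, 0.188 for LM2 and 0.248 for MDA-MB-231.

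The first comparison concerned which metalloproteases and inhibitors differ between LM2 cells and the parental line. ADAM19 and MMP16 rose in LM2, ADAMTS9 fell, and the other 38 members tested did not pass the threshold. Of 41 members, 2 were called higher (4.88%) and 1 lower (2.44%), against 0.841% and 1.47% of all genes tested. Quantile normalization evened the split over all genes to 131 each way and left the calls of these 3 members as they were. The LM2 arrays lay wholly above the MDA-MB-231 arrays for 14 members (34.1%) and wholly below them for 10 (24.4%), against 15.9% and 28.1% of all genes. The 14 include MMP3 and the 10 include MMP24, each above the filter only through the group where it was higher. The median change of the members was 0.04 log2 and that of all genes -0.04, while the median size of a change was 0.143 for members and 0.151 for all genes. In bulk RNA, fewer expressing cells and less RNA per cell cannot be told apart.

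**Figure D1:**
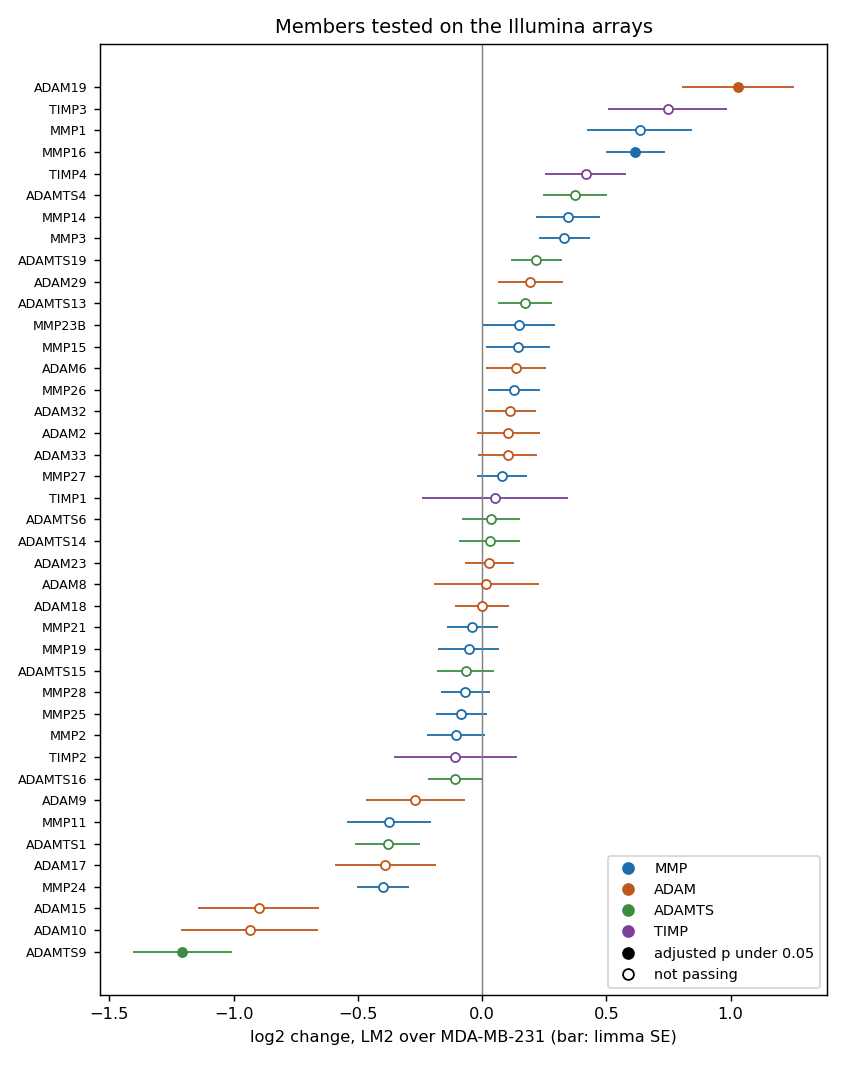
Log2 change in LM2 over MDA-MB-231 (x axis) of the 41 members tested on the Illumina arrays, ordered by change, with bars for the limma standard error and colours for the family. The 3 filled points, ADAM19 and MMP16 on the right and ADAMTS9 at the far left, are those with an adjusted p under 0.05.

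Among the ADAM proteases, ADAM19 (meltrin beta), which releases neuregulins from the membrane, had intensities of 1952 and 1673 in LM2, against 825 and 932 in MDA-MB-231. Both LM2 arrays were well above both MDA-MB-231 arrays, a change of 1.03 log2 (SE 0.226, adjusted p = 0.0416), or 2.04-fold. A second ADAM19 probe was below the filter, with 87.5 and 63.5 in LM2 and 88.4 and 85.9 in MDA-MB-231, and did not show the change. ADAM19 missed the threshold without LM2 array A (adjusted p = 0.34), LM2 array B (0.2) or MDA-MB-231 array A (0.0683). The mean of its probes gave 0.42 log2 (adjusted p = 0.328), and it also missed the threshold with no filter (0.0751).

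Of the sheddases, ADAM10, ADAM15, ADAM17 and ADAM9 lay lower on both LM2 arrays without passing. Over all genes, 28.1% lay wholly lower in LM2. ADAM8, also a sheddase, overlapped between the lines (0.02 log2, adjusted p = 0.986). ADAM10, which cuts Notch receptors and the amyloid precursor protein, had 393 and 292 in LM2, against 879 and 499 in MDA-MB-231. The MDA-MB-231 arrays differed from each other by 0.80 log2, and both lay above both LM2 arrays, with a change of -0.94 log2 (SE 0.277, adjusted p = 0.125). A dimmer ADAM10 probe near the array median had a change of -0.09 log2, and its arrays overlapped. The change was -1.33 log2 (adjusted p = 0.00661) with MDA-MB-231 array B left out and -0.54 log2 (adjusted p = 0.272) with array A left out.

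ADAM15, a sheddase with a disintegrin domain that binds integrins, was at 3183 and 2689 in LM2, against 4881 and 6129 in MDA-MB-231. The groups did not overlap, and the change was -0.90 log2 (SE 0.243, adjusted p = 0.0932). Its other 3 probes had changes of -0.60, -0.32 and 0.08 log2, so they disagreed in sign. Without MDA-MB-231 array A the change was -1.06 log2 (adjusted p = 0.0415).

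ADAM17, which releases tumour necrosis factor and ligands of the epidermal growth factor receptor, had 253 and 183 in LM2, against 285 and 290 in MDA-MB-231 (change -0.39 log2, adjusted p = 0.428). All 3 of its probes had LM2 below MDA-MB-231 on both arrays, with changes between -0.39 and -0.19 log2. ADAM9, another sheddase, had 403 and 407 in LM2 and 504 and 479 in MDA-MB-231 (-0.27 log2, adjusted p = 0.615). ADAM12 was below the filter with each of its 3 probes.

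Among the MMPs, MMP16, a membrane-type enzyme that activates the MMP2 precursor, had 159 and 152 in LM2, against 94.7 and 96.8 in MDA-MB-231. The MDA-MB-231 values were next to the array median, and the LM2 arrays were both above them. The change was 0.62 log2 (SE 0.119, adjusted p = 0.0254), or 1.53-fold. The deposited values keep part of the array background, so folds this close to it are understated. Its second probe was below the filter, at 68.7 and 68.3 in LM2 and 68.5 and 71.5 in MDA-MB-231. It did not show the change (-0.02 log2), so the call rests on the brighter probe. The annotation ties these probes to different sequence records of MMP16. On the Affymetrix arrays, too, only the probe set of the brighter probe's record was above the filter. Which transcripts each probe reads was not tested. MMP16 missed the threshold without LM2 array A (adjusted p = 0.153), LM2 array B (0.0955) or MDA-MB-231 array A (0.0539).

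MMP1, interstitial collagenase, had 203 and 273 in LM2, against 120 and 177 in MDA-MB-231. The lines did not overlap, but arrays A and B of each line differed by 0.40 and 0.51 log2 in size, B above A in both, and the change of 0.63 log2 did not pass (SE 0.212, adjusted p = 0.175). It was 0.89 log2 (adjusted p = 0.0238) with MDA-MB-231 array B left out, 0.38 log2 (adjusted p = 0.395) with MDA-MB-231 array A left out and 0.43 log2 (adjusted p = 0.732) with LM2 array B left out. MMP3, or stromelysin-1, which can activate other MMP precursors, had 115 and 123 in LM2 and 90.4 and 92.6 in MDA-MB-231, a change of 0.33 log2 (adjusted p = 0.145). It was above the filter only through its LM2 arrays, so it entered the test because it was higher there.

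MMP14, the membrane-type enzyme best known for activating the MMP2 precursor, had 151 and 144 in LM2, against 119 and 107 in MDA-MB-231 (0.34 log2, adjusted p = 0.235). MMP2, a gelatinase, had 115 and 97.1 in LM2 and 112 and 118 in MDA-MB-231, overlapping ranges close to the array median (-0.11 log2, adjusted p = 0.768). The other gelatinase, MMP9, was below the filter.

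In the other direction, MMP24, a membrane-type MMP studied mostly in the nervous system, had 84.6 and 87.6 in LM2, against 126 and 112 in MDA-MB-231 (-0.40 log2, SE 0.104, adjusted p = 0.0838). MMP11, or stromelysin-3, had 92.1 and 135 in LM2 and 137 and 164 in MDA-MB-231 (-0.38 log2, adjusted p = 0.343). MMP24 was above the filter only through its MDA-MB-231 arrays, so it entered the test because it was higher there. With MDA-MB-231 array B left out, its adjusted p was 0.0353. Over the 15 MMPs tested, 8 changes were positive and 7 negative, and the median was 0.08 log2. The positive ones include MMP3 and MMP26, and the negative ones MMP24, all above the filter only through the group where they were higher.

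**Figure D2:**
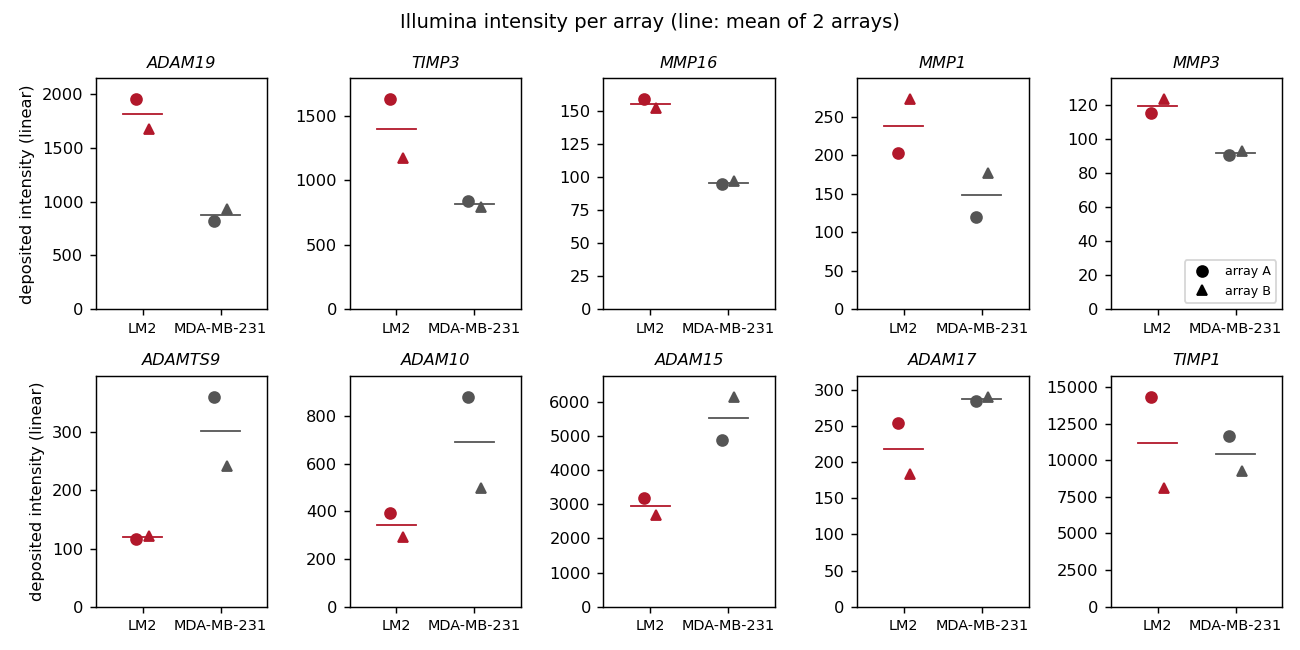
Deposited Illumina intensity (linear y axis from 0) of 10 members on each LM2 array (red, left) and each MDA-MB-231 array (grey, right), with circles for array A, triangles for array B and a line at the mean of both. ADAM19, TIMP3, MMP16, MMP1 and MMP3 sit higher on both LM2 arrays, ADAMTS9, ADAM10, ADAM15 and ADAM17 sit lower, and TIMP1 overlaps.

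Among the ADAMTS proteases, ADAMTS9, which cuts versican and aggrecan, had 117 and 121 in LM2, against 360 and 242 in MDA-MB-231. The LM2 arrays agreed closely and lay not far above the array median, while the MDA-MB-231 arrays differed from each other by 0.54 log2. The change of -1.21 log2 (SE 0.199, adjusted p = 0.0102), or 2.31-fold lower, had the smallest p of the 41 members. It rests on 1 probe, and the call was lost without LM2 array A (adjusted p = 0.115) or LM2 array B (0.0802).

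ADAMTS4 and ADAMTS1, both proteoglycan-cutting enzymes, did not pass. ADAMTS4 had 114 and 145 in LM2 and 91.2 and 100.2 in MDA-MB-231 (0.37 log2, adjusted p = 0.194). ADAMTS1 had 106 and 93.0 in LM2 and 121 and 149 in MDA-MB-231 (-0.38 log2, adjusted p = 0.191). Of the 9 ADAMTS genes tested, 5 changes were positive and 4 negative. The negative ones include ADAMTS16, which was above the filter only through MDA-MB-231, where it was higher.

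None of the 4 inhibitors passed, and 3 of their changes were positive. TIMP3, which binds to the matrix and also inhibits ADAM17 and several ADAMTS enzymes, had 1630 and 1176 in LM2, against 843 and 796 in MDA-MB-231. Both LM2 arrays were higher, a change of 0.75 log2 (SE 0.239, adjusted p = 0.155). TIMP4 had 230 and 219 in LM2, against 163 and 166 in MDA-MB-231, again without overlap (0.42 log2, adjusted p = 0.263).

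TIMP1 had 14300 and 8077 in LM2, against 11643 and 9255 in MDA-MB-231, and TIMP2, which also takes part in MMP2 activation by MMP14, had 3994 and 2895 in LM2 and 3824 and 3514 in MDA-MB-231. Both overlapped between the lines, with changes of 0.05 log2 for TIMP1 (adjusted p = 0.97) and -0.11 log2 for TIMP2 (adjusted p = 0.906). The second TIMP2 probe also overlapped (-0.30 log2). For TIMP1 the LM2 arrays differed from each other by 0.82 log2, far more than the change.

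The 20 members tested and not named by the rule had changes between -0.11 and 0.22 log2, with adjusted p between 0.376 and 0.999. At an unadjusted p under 0.05, 8 members were higher (19.5%) and 6 lower (14.6%), against 4.61% and 9.82% of all genes. The 8 include MMP3 and the 6 include MMP24, each above the filter only through the group where it was higher. The same holds for ADAM2, ADAM29 and MMP26, through LM2, and for ADAMTS16, through MDA-MB-231, which are in neither count. Members below the filter had changes between -0.25 and 0.28 log2. ADAM3A, ADAM5 and ADAM6 are pseudogenes, and MMP23A and MMP23B are near-identical copies, so their probes may read related transcripts.

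Genes that act with these enzymes were taken from 4 lists, chosen with earlier results of these data known. For comparison, the all-gene median is -0.04 log2, and 0.841% of all genes were called higher and 1.47% lower. Of 18 regulators of metalloproteases tested (such as furin, the rhomboid-like and tetraspanin partners of ADAM17 and ADAM10, and the plasminogen system), 1 was called higher and none lower, with a median change of -0.08 log2. It was SPOCK1, the matrix proteoglycan testican-1, at 1.22 log2 (SE 0.175, adjusted p = 0.00444). Of 8 ADAMTS-like and other related proteases, 1 was called higher and none lower, with a median of -0.09 log2. It was PAPPA, a protease of insulin-like growth factor binding proteins, at 1.75 log2 (SE 0.240, adjusted p = 0.00366).

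Of 21 membrane proteins known to be shed by ADAM enzymes, none was called higher and 2 were called lower, with a median of -0.13 log2. Over all genes, 0.841% were called higher and 1.47% lower. NRG1, the neuregulin that ADAM19 and ADAM17 can release, was at -1.21 log2 (SE 0.204, adjusted p = 0.0111), and CDH1, the E-cadherin that ADAM10 can cut, was at -0.54 log2 (SE 0.113, adjusted p = 0.034). CDH1 is also a marker of luminal epithelium. The summed level of the 7 luminal markers was 5125 and 3342 in LM2, against 9838 and 6954 in MDA-MB-231, with ESR1 and PGR below the filter, and its part in the member results was not tested.

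None of 13 AP-1 and ETS transcription factors, which are known regulators of MMP genes, was called (median 0.14 log2). Of 7 fibroblast markers, only COL1A1 was called, higher in LM2 at 1.94 log2 (adjusted p = 0.00134). The summed level of the fibroblast markers was 1117 and 921 in LM2, against 859 and 681 in MDA-MB-231, with COL3A1 below the filter, while the median change of the 6 tested was -0.13 log2. Fibroblasts also express many MMP and TIMP genes, and the part of this signal in the member results was not tested.

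Promoter sequence was available in the RefSeq table (GRCh38.p14) for 38 of the 69 members. The 120 bases before the start site are shown for ADAM19, which was called, and for TIMP3 and ADAM10, bright members that did not overlap between the lines, in opposite directions. The windows are chr5:157575776-157575895 on the minus strand for ADAM19, chr22:32801585-32801704 on the plus strand for TIMP3, and chr15:58749708-58749827 on the minus strand for ADAM10. Capitals mark GGGCGG or its reverse complement, the core of a GC box.
ADAM19: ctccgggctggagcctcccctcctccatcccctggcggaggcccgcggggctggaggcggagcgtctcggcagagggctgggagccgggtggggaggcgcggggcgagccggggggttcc
TIMP3: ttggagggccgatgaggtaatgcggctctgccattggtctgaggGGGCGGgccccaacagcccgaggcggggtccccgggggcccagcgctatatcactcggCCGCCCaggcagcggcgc
ADAM10: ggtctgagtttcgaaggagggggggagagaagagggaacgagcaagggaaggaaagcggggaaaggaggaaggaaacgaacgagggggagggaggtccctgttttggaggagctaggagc
G and C made up 80% of the ADAM19 window, 72.5% of the TIMP3 window and 59.2% of the ADAM10 window. Only the TIMP3 window, of these 3, held the GC box letters, with 2 matches. In the 250 bases before the start, counted on both strands and with each motif counted on its own, GGGCGG was in 25 of 39 member promoters (64.1%) and in 42.6% of all 35116 promoters in the table. TGANTCA, the AP-1 motif known from MMP promoters, was in 4 member promoters (10.3%), those of MMP7, MMP10, MMP20 and ADAMTS12, against 6.57% of all. TATAAA was in 7 (17.9%), against 10.7% of all. These are matches of letters, and no binding was measured.

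The second comparison concerned the same genes in LM2 cells over-expressing miR-126. No member of the 37 tested was called higher or lower by limma, and neither was any other gene (0% and 0% of 12923). At an unadjusted p under 0.05, 1 member was higher, ADAM10 (2.7%), and 1 was lower, TIMP4 (2.7%), against 3.37% and 4.44% of all genes. The LM2-miR126 arrays lay wholly above the LM2 control arrays for 11 members (29.7%) and wholly below them for 8 (21.6%), against 21.4% and 19% of all genes. The median change was 0.03 log2 for members and 0.02 for all genes, and the median size was 0.138 and 0.12.

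The inhibitors had the lowest median change of the 4 families, -0.35 log2, against 0.01 for the MMPs, 0.15 for the ADAM and 0.03 for the ADAMTS genes, with none called. The TIMP median was -0.10 log2 without LM2-miR126 array A and -0.62 without array B. TIMP4 had 1.85 and 2.22 times the array median in LM2-miR126, against 3.30 and 3.25 in LM2 control, a change of -0.65 log2 (SE 0.16, unadjusted p = 0.00992, adjusted p = 0.484). Both LM2-miR126 arrays were below both controls. It was at -0.47 log2 without LM2-miR126 array A and at -0.82 without array B.

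TIMP2 had 52.6 and 50.8 in LM2-miR126, against 56.7 and 59.3 in LM2 control, with a change of -0.17 log2 (SE 0.0695, adjusted p = 0.646). Its other probe sets were at -0.30 and -0.52 log2, and all 3 had LM2-miR126 wholly below LM2 control. TIMP1 had 56.1 and 67.7 in LM2-miR126, against 73.2 and 71.7 in LM2 control (-0.23 log2, adjusted p = 0.727). Array B of LM2-miR126 was only 0.04 log2 below the control mean for TIMP1, and array A was 0.42 below it.

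TIMP3 had 30.1 and 51.2 in LM2-miR126, against 53.0 and 54.2 in LM2 control (-0.46 log2, SE 0.295, adjusted p = 0.733). This change came mostly from array A: its difference from the control mean was -0.91 log2, against -0.01 for array B. The other 3 TIMP3 probe sets had the same imbalance between the LM2-miR126 arrays, with A below B by up to 1.58 log2, and overlapped the controls. All 9 TIMP probe sets, which come from 4 genes, had a negative change, and the share over all probe sets was not computed. On LM2-miR126 array B, however, those other 3 TIMP3 probe sets were above the control mean, in 1 case at 4.619 against 4.235 log2.

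**Figure D3:**
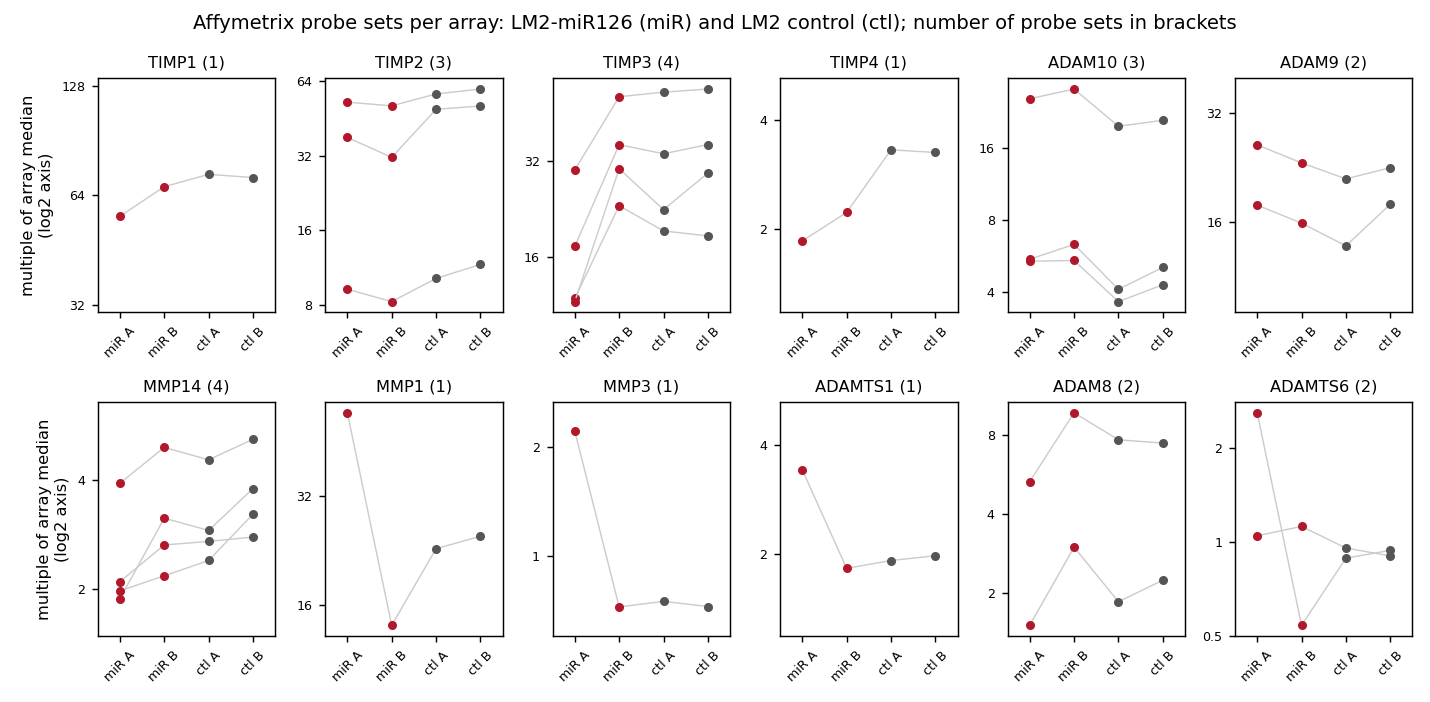
Deposited Affymetrix values (multiples of the array median, log2 y axes with different ranges) of 12 members on LM2-miR126 arrays A and B (red) and LM2 control arrays A and B (grey), with a thin line for each probe set above the filter, and the MMP3 probe set, which is below it. TIMP2 and TIMP4 are lower and ADAM10 is higher on both LM2-miR126 arrays, while MMP1, MMP3, ADAMTS6 and ADAM8 differ mainly between the 2 LM2-miR126 arrays.

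Among the sheddases, ADAM10 had 25.5 and 28.0 in LM2-miR126, against 19.6 and 20.8 in LM2 control (0.41 log2, SE 0.132, unadjusted p = 0.0264, adjusted p = 0.573). All 3 ADAM10 probe sets had both LM2-miR126 arrays above both controls, with changes between 0.40 and 0.48 log2. The brightest was at 0.56 log2 without LM2-miR126 array A and at 0.26 without array B. ADAM9 had 26.1 and 23.3 in LM2-miR126, against 21.0 and 22.6 in LM2 control (0.18 log2, adjusted p = 0.693). Its LM2-miR126 arrays were 0.182 and 0.187 log2 above the control mean, but its second probe set above the filter overlapped.

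ADAM17 had 6.78 and 7.68 in LM2-miR126, against 7.30 and 8.40 in LM2 control (-0.09 log2, adjusted p = 0.927). Its other probe sets were at 0.08 and 0.16 log2, so they disagreed in sign. ADAM15 was at 6.37 and 5.76 in LM2-miR126 and 5.68 and 5.87 in LM2 control, and ADAM19 at 5.02 and 5.34 in LM2-miR126 and 5.99 and 5.59 in LM2 control. The change was 0.10 log2 for ADAM15 (adjusted p = 0.875), whose arrays did not overlap after quantile normalization, and -0.13 log2 for ADAM19 (adjusted p = 0.87), whose arrays did. The second ADAM19 probe set was at 0.13 log2.

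Of the 12 ADAM genes tested, 9 changes were positive and 3 negative, with a median of 0.15 log2, against 0.02 for all genes. None was called, and the share of positive changes over all genes was not computed. The 9 include ADAM22 at 0.07 log2, whose arrays overlapped. ADAM33, studied in airway smooth muscle, was at 0.25 log2 (adjusted p = 0.695), and ADAM11, which has no protease activity, was at 0.24 log2 (adjusted p = 0.642). ADAM12, which is tied to muscle and placental development, and ADAM21, known from testis, were at 0.18 and 0.14 log2 (adjusted p = 0.727 for each). These 4 did not overlap with the controls, where 21.4% of all genes lay wholly higher, and ADAM11, ADAM12 and ADAM21 were not far above the array median. The second probe sets of ADAM33 (0.10 log2) and ADAM11 (0.03 log2) were below the filter and overlapped. That of ADAM21, also below it, did not overlap (0.32 log2). The other ADAM12 probe sets were all below the filter, with changes between -0.04 and 0.29 log2.

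For 2 of the MMPs the LM2-miR126 arrays split widely. MMP1 had 54.1 on array A and 14.1 on array B, against 22.8 and 24.7 in LM2 control. Array A was 1.14 log2 above the control mean and array B was 0.64 below it, so the change of 0.25 log2 (SE 0.57, adjusted p = 0.935) describes neither array. MMP3, below the filter, had 2.21 and 0.725 in LM2-miR126 and 0.751 and 0.727 in LM2 control, so array A was higher and array B was at the level of the controls.

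MMP1 and MMP3 are neighbours on chromosome 11, in a run of 9 adjacent members that also holds MMP7, MMP8, MMP10, MMP12, MMP13, MMP20 and MMP27. The other 7 genes of the run were below the filter, and their LM2-miR126 arrays differed, A minus B, by between -0.26 and 0.15 log2. For MMP1 and MMP3 the same difference was 1.78 and 1.58 log2. On the Illumina arrays, where MMP27 was also above the filter, the differences between LM2 arrays of the other 7 genes ran from -0.37 to 0.23 log2.

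MMP14 had 3.91 and 4.91 in LM2-miR126, against 4.54 and 5.17 in LM2 control (-0.11 log2, adjusted p = 0.921). All 4 of its probe sets had negative changes, the lowest at -0.39 log2, and 1 of them did not overlap. MMP2 had 2.53 and 3.63 in LM2-miR126, against 3.12 and 3.02 in LM2 control (0.03 log2, adjusted p = 0.984), on opposite sides of the controls. MMP9 was at 1.19 and 1.40 in LM2-miR126 and 1.15 and 1.18 in LM2 control (0.15 log2, adjusted p = 0.782). Of the 12 MMPs tested, 6 changes were positive and 6 negative.

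ADAMTS15, a proteoglycanase studied as a tumour suppressor in breast and colon cancer, had 2.75 and 3.06 in LM2-miR126, against 3.70 and 3.94 in LM2 control (-0.35 log2, adjusted p = 0.656). ADAMTS12 had 3.85 and 4.18 in LM2-miR126, against 5.08 and 5.32 in LM2 control (-0.34 log2, adjusted p = 0.667). Both lay below the controls on both arrays, but a second ADAMTS12 probe set above the filter was at -0.10 log2 and overlapped. ADAMTS1 had 3.42 and 1.83 in LM2-miR126, against 1.92 and 1.98 in LM2 control (0.36 log2, adjusted p = 0.763), and its second probe set, below the filter, split the same way, with array A above B by 1.07 log2.

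3 of the 37 members tested (8.11%), against 2.21% of all genes, differed by over 1 log2 between the LM2-miR126 arrays. Besides MMP1 they were ADAMTS6 and ADAM8, a sheddase of immune and tumour cells, both chosen here after their values were seen. ADAMTS6 had 2.59 on array A and 0.54 on array B of LM2-miR126, against 0.886 and 0.939 in LM2 control, and its other 2 probe sets did not show the split. It was above the filter only through array A, so it was tested because of the split. ADAM8 was the reverse, with 5.32 on array A and 9.74 on array B, against 7.68 and 7.46 in LM2 control, and both its probe sets had A below B by about the same amount, 1.09 and 1.11 log2.

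**Figure D4:**
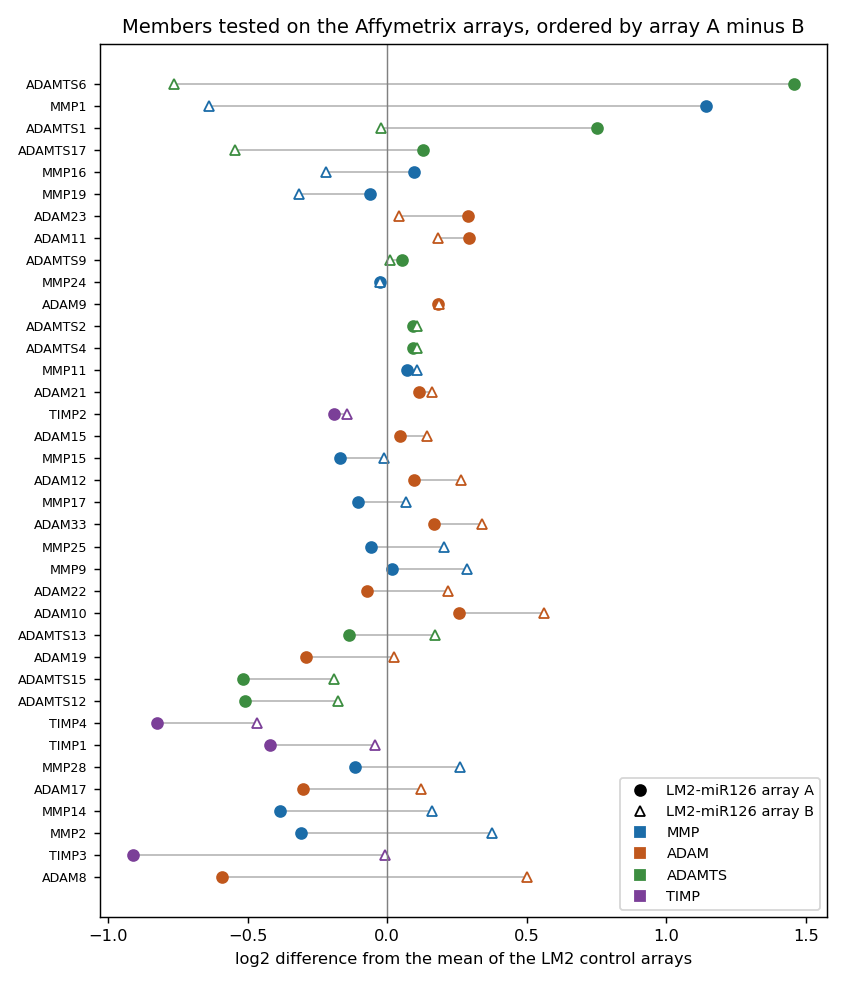
Log2 difference of each LM2-miR126 array from the mean of the LM2 control arrays (x axis) for the 37 members tested, with a filled circle for array A, an open triangle for array B and colours for the family, ordered by A minus B. For 15 members the 2 arrays fall on opposite sides of 0, with ADAMTS6 and MMP1 widest at the top and ADAM8 and TIMP3 at the bottom.

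The LM2-miR126 arrays fell on opposite sides of the control mean for 15 of 37 members and on the same side for 22. In 23 members the difference between the arrays was larger than the change itself. The share over all genes was not computed for these counts. Without array A, 8 members were called higher and 6 lower, and without array B, 7 higher and 11 lower. In those settings the spread came from the LM2 control pair alone, the lone array was assumed to vary like the controls, and 17.8% of all genes were called higher and 18.1% lower without array A, and 19.8% higher and 17.4% lower without array B. Both settings used the same LM2 control arrays, so agreement between them is not independent, and the share of all genes agreeing was not computed. Among the 22 on the same side, ADAM9 was 0.182 and 0.187 log2 from the control mean on arrays A and B, and ADAM10 0.258 and 0.562. TIMP2 was at -0.189 and -0.145, and TIMP4 at -0.825 and -0.467. MMP1, MMP2, ADAM8 and ADAMTS6 were among the 15 on opposite sides.

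The 12 members tested and not named by the rule had changes between -0.21 and 0.35 log2, with adjusted p between 0.748 and 0.99. In the companion lists none was called: the median was 0.08 log2 for 20 regulators, 0.07 for 7 ADAMTS-like and related proteases, 0.10 for 15 shed membrane proteins and 0.01 for 14 AP-1 and ETS factors, against 0.02 for all genes. The summed level of the fibroblast markers was 31.1 and 50.2 times the array median in LM2-miR126, against 35.0 and 39.2 in LM2 control, with 3 of 7 above the filter. That of the luminal markers was 25.7 and 28.2 in LM2-miR126, against 39.0 and 40.9 in LM2 control. Neither was tested for its part in the member values.

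The platforms shared no array, so the values of the 28 members tested on both can be set side by side. The change had the same sign in 11 and opposite signs in 17, and the share over all genes was not computed. Signs of changes close to 0 are counted too, such as those of ADAM8 at 0.02 and -0.05 log2. ADAM10 was at -0.94 log2 in LM2 over MDA-MB-231 and at 0.41 in LM2-miR126 over LM2 control. TIMP3 was at 0.75 and -0.46, TIMP4 at 0.42 and -0.65, and MMP1 at 0.63 and 0.25 in the same order.

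None of these 4 genes passed the threshold in either comparison. Of the 3 members that did pass in LM2, ADAM19 was at -0.13 log2, MMP16 at -0.06 and ADAMTS9 at 0.03 in LM2-miR126 over LM2 control, each with overlapping arrays. 17 members were below the filter on both platforms.

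**Figure D5:**
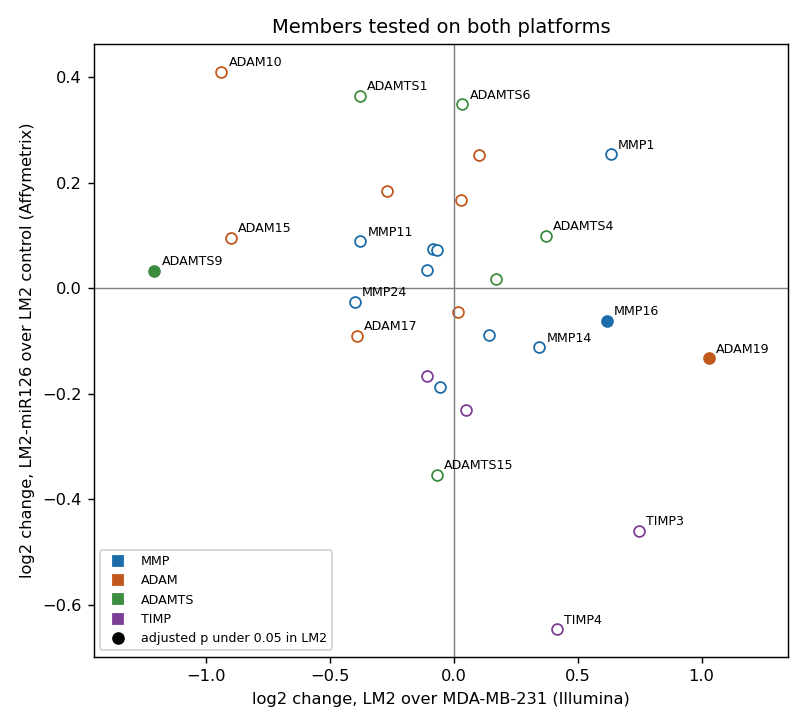
Log2 change in LM2 over MDA-MB-231 (x axis) against log2 change in LM2-miR126 over LM2 control (y axis) for the 28 members tested on both platforms, with filled points for an adjusted p under 0.05 in LM2 and colours for the family. TIMP3 and TIMP4 lie at the lower right and ADAM10 at the upper left, while ADAM19, MMP16 and ADAMTS9 lie close to 0 on the y axis.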

How the data were processed

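For each platform the authors deposited processed intensities in 1 table, on a linear scale. Software and normalization: not given in the sources used here. Per the labels' protocols, the RNA came from a mirVana extraction and carried a biotin label. Probes were named through the platform annotation, updated by Entrez identifiers, and only those with 1 gene were kept, which left out 2 Affymetrix probe sets that name a member and another gene. The members and the companion lists were chosen with earlier results of these data known. Illumina values were taken as log2(value + 16) on the deposited scale, which understates changes of dim genes, and Affymetrix values as log2 after quantile normalization. Overlap between groups was judged on these log2 values. The probe with the highest mean stood for a gene. Groups were compared by lmFit and eBayes, with a trend of variance on intensity, from limma 3.58.1 (R 4.3.3), in two-sided tests, adjusted by Benjamini-Hochberg over all genes above the filter. The steps were tested on simulated data. With 2 arrays on each side the smallest exact permutation p is 0.3333, and the number of arrays limits the precision. Members named were those called, the 6 of smallest p in each direction of each comparison, a fixed set of 16 well-studied members, and any with probes above the filter that changed in opposite directions by over 0.3 log2 each, of which there were none. Alternatives covered the scaling, the filter, the variance prior, the choice of probe, the pseudocount, the replicate letter and each array left out. Python 3.11.15 with matplotlib 3.10.9 drew the figures.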

Additional observations from a re-analysis of the deposited data

How the results depend on the processing

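In LM2 over MDA-MB-231, 2 members were called higher and 1 lower. The higher count was 1 with no filter, with the stricter filter and with every probe tested, 0 when a gene's probes were averaged, and 0 with a variance prior without a trend, under which the lower count was 0 too. Over all genes, 0.525% were called higher with no filter, 1.06% with the stricter filter and 0.569% with averaged probes. With the prior without a trend, 0.328% of all genes were called higher and 0.528% lower. That prior gave adjusted p of 0.054 for ADAM19, 0.0698 for ADAMTS9 and 0.107 for MMP16. With the letter A or B of the titles as a replicate block, the counts were 3 and 3, adding MMP1 (adjusted p = 0.0388), ADAM10 (0.0152) and MMP24 (0.0304), and over all genes 1.67% were called higher and 3.29% lower, against 0.841% and 1.47% without it. The letters were not shown to pair the arrays: their differences correlated at 0.128 on the Illumina and 0.0598 on the Affymetrix arrays. In LM2-miR126 over LM2 control the block called no member, and it called 0.116% of all genes higher and 0.279% lower. With any array left out, a group keeps a single array. Without MDA-MB-231 array B, more members were called in both directions, and without MDA-MB-231 array A none was called higher. Without LM2 array A, and also without LM2 array B, none was called in either direction. Over all genes, too, calls were more without MDA-MB-231 array B and fewer without either LM2 array. ADAM19 was at 0.92 log2 without LM2 array A and 1.14 without array B, MMP16 at 0.588 and 0.646, and ADAMTS9 at -1.18 and -1.23. For LM2-miR126 over LM2 control, members called higher ran from 0 to 8 and lower from 0 to 11, and the other alternatives called none. ADAM17 was at 0.0522 log2 there with the mean of its probes, and MMP2 at -0.0214 on the deposited scale, against the sign reported. The cause was not tested.

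Leaving out an array also turned signs. In LM2 over MDA-MB-231, TIMP1 ran from -0.36 to 0.46 log2, TIMP2 from -0.34 to 0.12, ADAMTS15 from -0.20 to 0.0655 and MMP2 from -0.21 to 0.0012. In LM2-miR126 over LM2 control, MMP1 ran from -0.64 to 1.14, MMP2 from -0.31 to 0.38, MMP14 from -0.39 to 0.16, MMP16 from -0.22 to 0.10, ADAM17 from -0.30 to 0.12, ADAM19 from -0.29 to 0.024, ADAMTS1 from -0.0221 to 0.75 and ADAMTS9 from -0.17 to 0.24. With 2 arrays a group and many probes near background, small changes of dim members cannot be told from none here.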
